A study of Oryctolagus cuniculus with 4 samples.

Results

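The genes described here belong to complement, the acute phase response and mucosal defence, measured in rabbit blastocysts of 6 days. They were chosen by a rule on the description of each probe in the array files. A probe was taken if its description held any of 10 keywords (complement component, complement factor, serum amyloid, clusterin, polymeric immunoglobulin receptor, lactotransferrin, haptoglobin, defensin, lysozyme and ceruloplasmin), and PIGR, CLU, C1RL and LOC100009168 (serum amyloid A, SAA1) were added by name. The rule found 89 probes of 42 genes among 22629 genes or transcripts on the array, and the keyword lactotransferrin found 0 probes. Of the 42 genes, 4 were named by the rule and 38 came from a keyword alone. The 4 named genes had been selected on their higher level in parthenotes in these same arrays, so their values are given as a description with no test.

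Each of the 4 arrays carried RNA of a pool of parthenotes and of a pool of fertilised embryos, all from New Zealand White rabbits. Parthenotes were oocytes activated without sperm by electrical pulses and then by cycloheximide and 6-DMAP, and they were transferred by laparoscopy into the oviducts of recipient does just after activation. Fertilised embryos came from inseminated does and were not transferred. Both kinds of blastocyst were flushed from the uterus at 6 days and pooled, several embryos to a pool. Parthenote RNA was labelled with Cy3 and fertilised RNA with Cy5 on all 4 arrays, and the dyes were swapped on 0 arrays. The transfer, the dye and the kind of embryo therefore cannot be told apart. As a check of the tissue, 5 of 8 listed trophectoderm genes were measured, and 4 of them, among them the keratin KRT8, were above background in every pool. ELF5 was above background in none. KRT8 was higher and GATA2 lower in parthenotes in limma (adjusted p = 0.041 and 0.045). Of 6 listed epiblast genes 2 were measured, LIN28A and the pluripotency factor POU5F1, both above background in every pool. POU5F1 was higher in parthenotes in limma (adjusted p = 0.012).

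Complement is a cascade of blood and tissue fluid proteins. The C1 complex (C1q, C1r and C1s) starts the classical pathway, factor B and properdin drive the alternative pathway, both cleave C3, and the terminal components assemble a pore in the target membrane, while factor I and clusterin hold the cascade back. Serum amyloid A, haptoglobin and ceruloplasmin are acute phase proteins, secreted in large amounts by the liver and by some epithelia under interleukin signals. The polymeric immunoglobulin receptor carries immunoglobulin A and M across epithelia into mucosal fluids, where defensins and lysozymes attack microbes.

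The readout was a 60-base probe, and some probes of these genes are alike or overlap, which bears on what each signal can stand for. The probe of SAA3 and the second probe of SAA1 matched at 42 of 47 aligned bases, and the 5 bases that differ are in capitals. Neither has a position in the array files.

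SAA3 A_04_P000811: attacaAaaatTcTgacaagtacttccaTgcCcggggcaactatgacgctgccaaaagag

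SAA1 A_04_P004476: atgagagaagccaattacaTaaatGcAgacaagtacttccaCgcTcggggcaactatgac

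The array files place the probes of the C1q chains on the minus strand of chromosome 13 without naming a genome build. The brightest probe of the C1qB-like gene LOC100009463 (positions 130475855 to 130475914) and the probe of the C1q gamma polypeptide-like gene LOC100347068 (130485508 to 130485567) matched at 43 of 60 bases, and the 17 that differ are in capitals. The other probe of LOC100009463 (130475664 to 130475723) follows in lower case, because its ratio differed from that of the brightest probe.

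LOC100009463 A_04_P013661: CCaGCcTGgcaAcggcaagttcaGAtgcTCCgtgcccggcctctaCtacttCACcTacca

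LOC100347068 A_04_P062767: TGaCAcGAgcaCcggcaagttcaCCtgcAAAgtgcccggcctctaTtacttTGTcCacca

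LOC100009463 A_04_P062772: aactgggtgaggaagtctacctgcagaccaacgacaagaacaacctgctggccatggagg

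LYZL4 has 5 probes on chromosome 9, and each is shifted by 1 base from the next. The pair shown spans positions 1821795 to 1825640 and 1821796 to 1825641, more than a probe's length, and the capital marks the base that the other probe of the pair lacks.

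LYZL4 A_04_P095445: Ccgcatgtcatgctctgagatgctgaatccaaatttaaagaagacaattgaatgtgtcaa

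LYZL4 A_04_P095444: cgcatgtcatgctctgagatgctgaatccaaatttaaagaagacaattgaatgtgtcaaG

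CLU and C1RL were each read by a single probe, so no other probe could be set beside their values. That of C1RL lies on the minus strand of chromosome 8 (33075311 to 33075370).

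C1RL A_04_P087277: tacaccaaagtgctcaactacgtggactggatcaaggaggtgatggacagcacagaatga

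Values are log2 ratios of parthenote over fertilised embryos from the deposited ratio of each spot, as mean ± SD over 4 arrays, and each gene is given at its brightest probe, the probe with the highest mean log2 signal over both channels. For 21 of the 42 genes the brightest probe exceeded background clearly, by the software's own mark, in a channel or both on each of the arrays. For 16 genes it was above background in neither channel on any array. Of the 38 genes found by keyword, 2 were higher and 2 were lower in parthenotes in limma (Benjamini-Hochberg adjusted p under 0.05 over all probes). Over all genes tested, 9.14% were called higher and 11.2% lower, 20.4% in all, and over all probes 20.6% were called. With the deposited ratios and no filter on dim probes, the share of keyword genes called was thus not above that of the array. At an unadjusted p under 0.05 there were 11 of the 38 genes. The median log2 ratio of the 38 genes was 0, as was that of all genes, and 7 of the 38 had a ratio of exactly 0, which the software gives when neither channel has a usable signal.

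The genes that stood highest in parthenotes were the serum amyloids, the mucosal receptor PIGR, clusterin, the C1q gamma polypeptide-like gene and C1RL. LYZL4 was lower, but it was measured in the fertilised channel alone. Most of the defensins, terminal complement components and regulators of C3 were near 0 or not above background. On a normexp scale with median centring of each array, which adds an offset of 50 to each signal and so draws the ratio of a dim probe towards 0, the ratio was 2.86 for SAA3, 2.33 for SAA1, 1.42 for PIGR, 1.32 for CLU, 0.71 for C1RL and -0.34 for LYZL4. On that scale LOC100344977 (-0.64), SAAL1 (-0.59) and SAF-8 (-0.59) lay below LYZL4 and were called lower in limma. The first 2 had adjusted p of 4.71e-07 and 1.86e-06 there, without a call in the deposited ratios. With loess in place of median centring their ratios were -0.14 and -0.07, again without a call (adjusted p of 0.12 and 0.29 in limma). Their lower level thus depends on the centring, and the part of a dye effect in it was not tested.

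**Figure D1:**
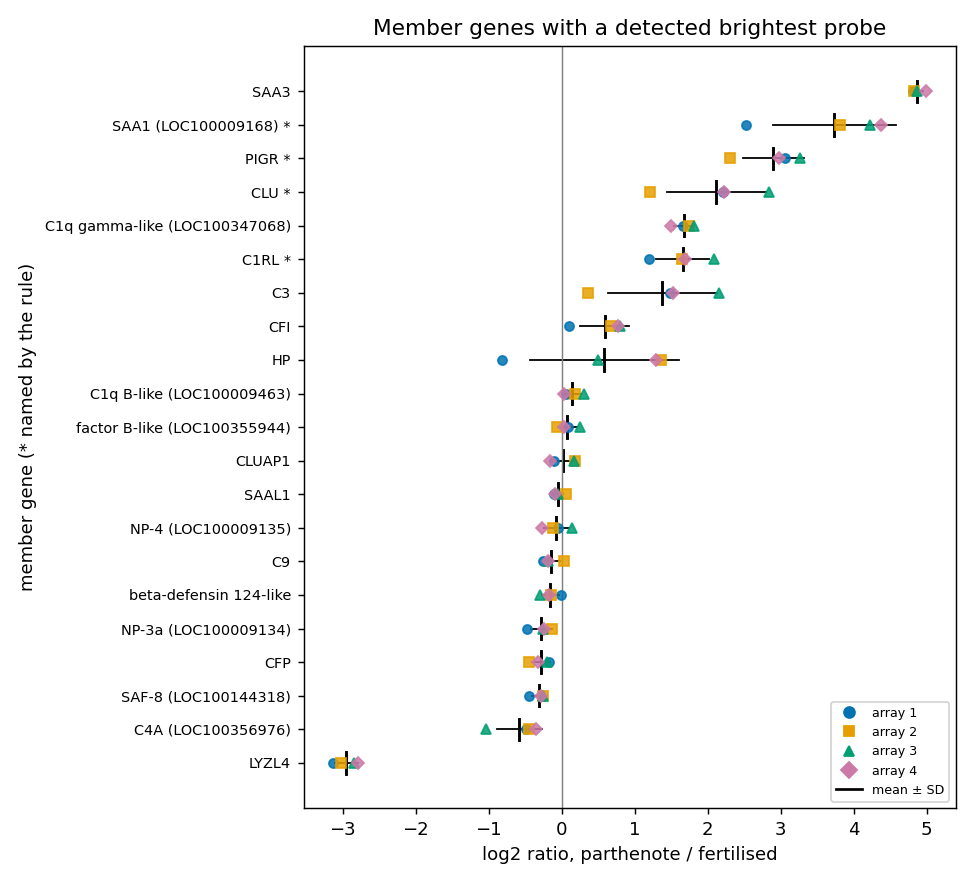
Log2 ratio of parthenote over fertilised embryos (x axis) for the 21 genes whose brightest probe exceeded background clearly on each of the 4 arrays, in a channel or both (y axis). Points are the 4 arrays, the black bar and line are the mean and SD over them, and an asterisk marks the 4 genes named by the rule. SAA3 had a mean of 4.87 and HP had arrays on both sides of 0, while the points of LYZL4 rest on a parthenote signal that was not above background on any array, so that only the limit of at least 1.42-fold lower applies.

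Serum amyloid A differed most between the groups and also varied most between pools. SAA3, an acute phase apolipoprotein made by several tissues outside the liver, had processed signals of 416, 1115, 4357 and 2277 in the parthenote pools of arrays 1 to 4. The fertilised pools had signals of 14.8, 39.4, 149 and 71.7. The groups did not overlap, and array 3 was highest and array 1 lowest in both. The log2 ratios were 4.81, 4.82, 4.87 and 4.99, a mean of 4.87 ± 0.08 (SD, n = 4) with an adjusted p of 0.0025 in limma. Of the 22622 genes tested, 4 had a higher mean log2 ratio. The signal of SAA3 thus ran over a 10.5-fold range between parthenote pools and nearly as wide a range between fertilised pools, while the ratio within an array stayed nearly constant. In the fertilised pools it was 3.57%, 3.53%, 3.42% and 3.15% of the parthenote signal on arrays 1 to 4, and on array 1 it was not well above background. Among the probes at least as bright as SAA3 in parthenotes, 0 had a lower percentage on arrays 2 and 3, 5 had one on array 1 and 1 had one on array 4. Whether carry-over between the channels adds to the fertilised signal of SAA3 was not tested.

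SAA1, the main acute phase apolipoprotein, is read by probes that list the accessions of LOC100009168 and LOC100009259 alike, and the table of rabbit genes joins both under LOC100009168. At its brightest probe the parthenote pools had signals of 144, 1317, 11107 and 5077 on arrays 1 to 4. The fertilised pools had signals of 25.0, 93.9, 593 and 244. The groups overlapped, because the parthenote pool of array 1 lay below the fertilised pools of arrays 3 and 4, yet the parthenote pool was higher on each array. The log2 ratios were 2.53, 3.81, 4.23 and 4.38, a mean of 3.74 ± 0.84. The parthenote signal ran over a 76.9-fold range between pools and the fertilised signal over a 23.7-fold range, wider than for any other gene in the plot of signals by pool. The second probe, the one alike to that of SAA3, gave 4.41 ± 0.67 and was above background in the fertilised channel on 2 arrays. Whether the signal of either holds RNA of both genes was not tested. A further 2 probes that the array files name SAA3 come from a cDNA clone of an embryo library, and the rule does not take them. They were above background on 2 and 3 of the parthenote pools and on 0 fertilised pools, and were not called (2.73 ± 1.96 with an adjusted p of 0.13 and 2.13 ± 1.61 with 0.15 in limma).

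**Figure D2:**
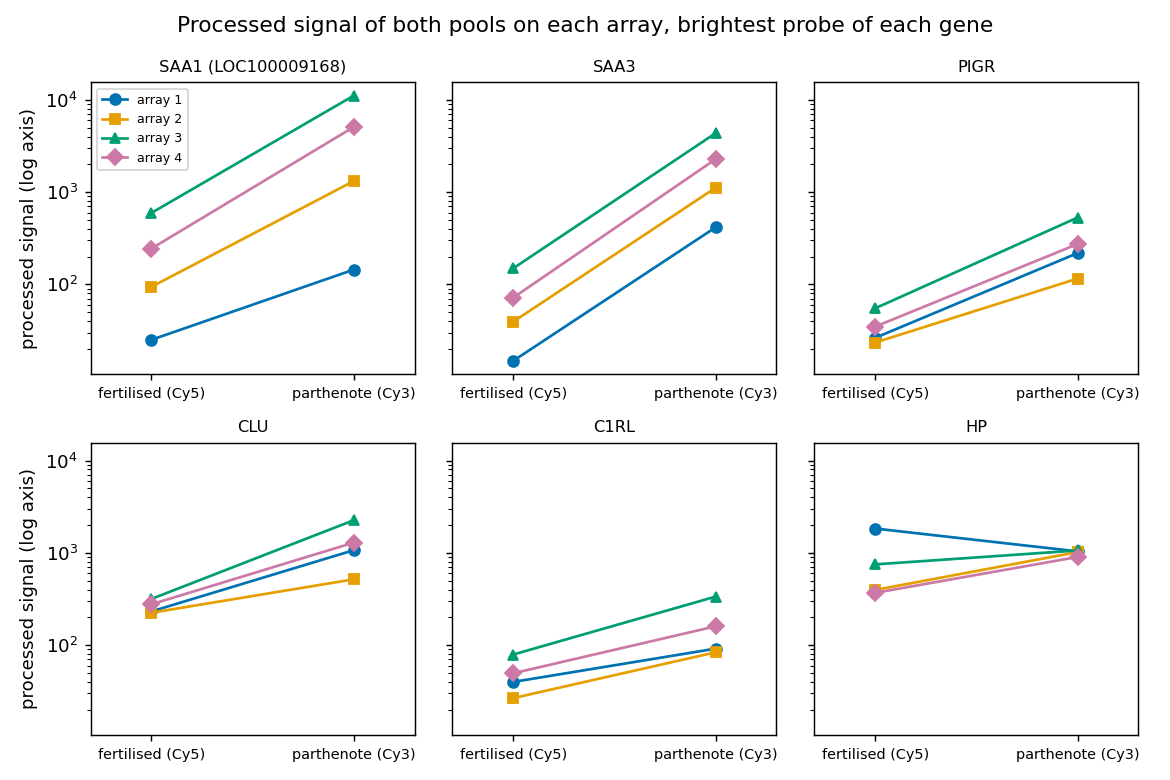
Processed signal (y axis, log scale, in the arbitrary units of the scanner) of the fertilised and the parthenote pool on each array, at the brightest probe of 6 genes. Each line joins the pools of an array. SAA1 and SAA3 changed with the array in both channels, while HP lay between 902 and 1061 in the parthenote pools and ran from 368 to 1833 in the fertilised pools.

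PIGR, the receptor for polymeric immunoglobulins, had 6 probes on chromosome 16. At the brightest (positions 65458805 to 65458864) the parthenote pools had signals of 218, 116, 530 and 274 on arrays 1 to 4. The fertilised pools had signals of 26.3, 23.4, 55.0 and 34.8. The groups did not overlap, and the mean log2 ratio was 2.90 ± 0.42. A set of 4 further probes, shifted by 1 to 4 bases from it, gave means between 3.35 and 3.88, and they share so many bases that they are not separate evidence. The remaining probe lies upstream (65457731 to 65457790). It was above background in neither channel on any array and gave 0.29 ± 0.53, with ratios below 0 on arrays 2 and 4.

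Clusterin (CLU) is a secreted chaperone that blocks the terminal complement pore. Its parthenote signals were 1068, 516, 2257 and 1290 on arrays 1 to 4, and its fertilised signals were 232, 224, 316 and 277. The groups did not overlap, and most of the spread lay in the parthenote pools, which ran over a 4.37-fold range against 1.41-fold in the fertilised pools. The mean log2 ratio was 2.12 ± 0.68, lowest on array 2 at 1.20. C1RL, a serine protease related to C1r, had parthenote signals of 91.6, 83.7, 336 and 160 and fertilised signals of 39.9, 26.6, 79.1 and 49.5. The groups did not overlap here either, though by little, and the mean log2 ratio was 1.66 ± 0.36.

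The 4 named genes and SAA3 shared the first places in the order of the arrays. In both channels the pools of array 3 were brightest and those of array 4 next. The pools of array 1 then lay above those of array 2 for PIGR, CLU and C1RL, and below them for the serum amyloids. LOC100347068 had the order of the serum amyloids in both channels, with its fertilised channel above background on 3 arrays. LYZL4 had another order, the same in both channels, but its parthenote channel was not above background. Of the 17 genes measured in both channels on every array, 5 had the same order of the 4 arrays in both channels, and these were the 4 named genes and SAF-8. Over all genes measured in that way, 14.0% had the same order. The pools of an array were separate embryos, and the sources used here do not say whether they shared a day or a doe. No test of this order was made.

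Markers of some other cell types were also higher in parthenotes, and those of others were not. In parthenote pools OVGP1, the secretory gene SCGB1A1 and C1R had the order of arrays of PIGR. The ciliary gene CAPS was brightest on array 3 with array 1 next, and the ciliary gene RSPH1 and the erythroid gene HBA were brightest on array 1. In fertilised pools none of these genes had the order of PIGR. Of 10 genes listed for the secretory epithelium of oviduct and uterus, 6 were measured and 4 were higher in parthenotes in limma, among them OVGP1, the oviductal glycoprotein, at 3.87 ± 0.29 (adjusted p = 0.0051). Their summed signal ran from 8848 to 32991 in parthenote pools and from 4538 to 8199.6 in fertilised pools. Of 10 genes of motile ciliated cells, 6 were measured and 3 were higher, with summed signals of 1032 to 2821 against 353 to 478. Of 4 erythroid genes, 2 were measured and both were higher, with summed signals of 13194 to 31921 against 4278 to 11347. The ranges of the 2 groups did not overlap for any of these 3 lists, but each sum leans on its brightest genes. In parthenote pools OVGP1 ran from 3014 to 19178, the ciliary gene CAPS from 839 to 2384 and HBA from 13034 to 31694. Over all genes tested, 9.14% were called higher. Not all of the listed genes followed. The secretory marker WFDC2 had a mean of 0.01 ± 1.04, and ESR1 of the same list and the ciliary regulator FOXJ1 were above background in neither channel. The ciliary genes CCDC39 and SPAG6 were not called (adjusted p of 0.056 and 0.072 in limma). Of 10 leukocyte genes, 7 were measured and 3 were higher, with sums of 898 to 1068 against 641 to 702, while CD3E and PTPRC were not above background on any array. Of 9 genes of hepatocytes or visceral endoderm, the usual source of acute phase proteins, 8 were measured, 0 were higher and 1 was lower, with sums of 8159 to 11406 against 8958 to 13636, and ALB was not above background. The part of any of these cells in the values of the serum amyloids, PIGR, CLU and C1RL was not tested. In pooled embryos, more cells of a type and more RNA per cell cannot be told apart.

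Among the components that start the classical pathway, the C1q gamma polypeptide-like gene LOC100347068 was higher in parthenotes. Its parthenote signals were 44.6, 50.6, 71.6 and 51.8 and its fertilised signals 14.1, 15.1, 20.5 and 18.4 on arrays 1 to 4. The groups did not overlap, and the mean log2 ratio was 1.67 ± 0.14 (adjusted p = 0.0055 in limma), with the fertilised channel above background on 3 arrays. After normexp and loess the ratio was 0.42. The C1qB-like gene LOC100009463 gave different answers at its probes. Its brightest probe had 0.14 ± 0.12 (adjusted p = 0.19), and the other had 2.87 ± 0.53 (adjusted p = 0.014). At that probe the fertilised channel was not well above background on any array and the parthenote channel on 3, so that parthenotes were at least 1.31-fold higher, the mean of the brighter channel over the lowest signals that count as measured. The complement component 4A gene LOC100356976, whose product carries the cascade from C1 to C3, had -0.58 ± 0.31 and was not called (adjusted p = 0.077). Complement component 2 (LOC100355553) was above background in neither channel.

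C3, on which all pathways converge, had parthenote signals of 22.3, 57.9, 47.6 and 33.2 and fertilised signals of 7.999, 45.3, 10.7 and 11.6 on arrays 1 to 4. The groups overlapped because of the fertilised pool of array 2, and that array's log2 ratio of 0.35 lay below the 1.48 to 2.15 of the others. The mean of 1.38 ± 0.75 was not called (adjusted p = 0.079). Its parthenote channel was above background on 4 arrays and its fertilised channel on 2. C3 was called where only the 26725 probes detected in at least 1 channel on all arrays were tested (adjusted p = 0.017 in limma). It passed that filter on some arrays through the parthenote channel alone, so this call is no separate support. After normexp and loess the ratio was 0.36, without a call. Properdin (CFP), which stabilises the alternative pathway enzyme, had -0.29 ± 0.12 with an adjusted p of 0.0504, and the factor B-like gene LOC100355944 had 0.08 ± 0.13.

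Factor I (CFI), the protease that inactivates C3b, had 3 probes with means of 0.59, 0.53 and 0.49, and none was called (adjusted p of 0.085, 0.10 and 0.14 in limma). At the brightest, arrays 2 to 4 had log2 ratios between 0.68 and 0.79 and array 1 had 0.10. CFI was called without array 1 (0.75, adjusted p = 0.024) and with the filter on dim probes (adjusted p = 0.022). Of the 6 terminal components, which form the pore, only C9 had a brightest probe above background on every array, with -0.15 ± 0.13, and its other probes gave 0.38 and 0. C6, C7, C8A, C8B and C8G lay between -0.61 and 0.06, with no call. The receptors C3AR1 and ITGAX were not called, and ITGAX was not above background on any array.

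Haptoglobin (HP), which binds free haemoglobin, behaved unlike the serum amyloids. Its parthenote signals were 1037, 1019, 1061 and 902 on arrays 1 to 4, a 1.18-fold range, and its fertilised signals were 1833, 396, 750 and 368, a 4.98-fold range. The groups overlapped, and the fertilised pool of array 1 was the highest of all. The mean log2 ratio of 0.58 ± 1.02 was not called (adjusted p = 0.49), with array 1 at -0.82 and the other arrays between 0.50 and 1.36. The second probe shares 30 bases with the first and gave 0.46 ± 1.00. Ceruloplasmin (CP), a copper carrier, was above background on 1 array, and the serum amyloid P-component-like gene LOC100352593 on 0 arrays.

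Defensins, small peptides that open microbial membranes, showed no rise. Of 24 probes of 8 genes, 17 were never above background. The beta-defensin 124-like gene LOC100344977 was the brightest, with signals between 686 and 931 in parthenotes and between 809 and 942 in fertilised pools, and -0.16 ± 0.11 (adjusted p = 0.13 in limma). The neutrophil defensin NP-4 (LOC100009135) had -0.08 ± 0.17. NP-3a (LOC100009134) had 5 probes shifted by 1 base from each other, all with means below 0, from -0.86 to -0.19. Its brightest probe was not called (-0.28 ± 0.14, adjusted p = 0.070), while 2 dimmer ones were (adjusted p of 0.046 and 0.036). At the dimmest of these the parthenote channel was not well above background on any array, and parthenotes were at least 1.07-fold lower.

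In the lysozyme family a single probe carried all of the signal. The probe of LYZL4 with the leading capital in its sequence above had parthenote signals of 4.07, 3.82, 3.74 and 3.21, not well above background on any array. Its fertilised signals were 35.6, 31.2, 26.9 and 22.3, above background on all arrays. The mean log2 ratio was -2.95 ± 0.16 (adjusted p = 0.0042 in limma), and parthenotes were at least 1.42-fold lower. The ratio rests on the software's surrogate for the parthenote channel, and it was -0.52 after normexp and loess. The other 4 probes of LYZL4, which match it over 57 to 59 bases, were above background in neither channel and had ratios of 0 on all arrays. LYZL4 is a lysozyme-like gene known from the testis. LYG2, SPACA3 and LOC100356058, the rest of the family here, were above background in neither channel.

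**Figure D3:**
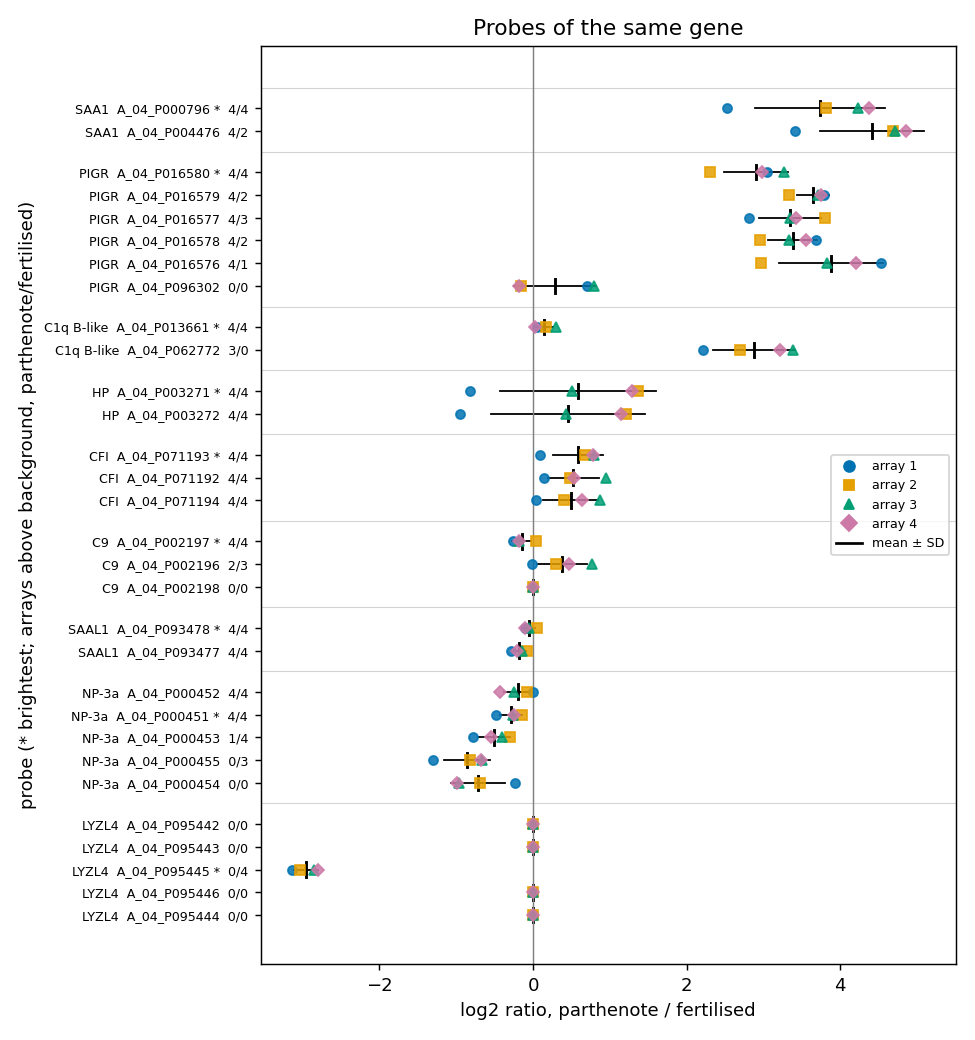
Log2 ratio of parthenote over fertilised embryos (x axis) for each probe (y axis) of 9 genes with several probes. Points are arrays, the black bar and line are the mean and SD, an asterisk marks the brightest probe of a gene, and the numbers after each probe are the arrays on which it was above background in parthenotes and in fertilised embryos. The probes of PIGR, C1qB-like and LYZL4 disagree within a gene, those of HP and CFI do not.

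A few genes were taken only for the wording of their description. SAF-8 (LOC100144318), a zinc finger factor that binds the serum amyloid A promoter, was slightly lower in parthenotes on all arrays, with -0.32 ± 0.09 (adjusted p = 0.027 in limma), and array 1 lay apart at -0.45. Without array 2, 3 or 4 and in the methods' t-test it was not called. SAAL1 (-0.05 ± 0.07) and CLUAP1 (0.02 ± 0.18), named for their likeness to serum amyloid A and for binding clusterin, were not called and were well above background, while C1QL3, a C1q-related gene of the nervous system, was not above background.

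The other genes of these pathways were taken from a list by role. Of 131 genes listed, 25 are described above and 55 more had a probe under their name. The rest were not analysed here. Of the 55, 10 were higher and 9 lower in parthenotes in limma, against 20.4% of all genes called, and their median log2 ratio was 0. Without array 2, 3 or 4 the number called fell to 6, 6 and 4.

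Among the proteases that start the classical pathway, C1R was higher at 2.26 ± 0.74 (adjusted p = 0.032), with 1.37, 2.15, 3.16 and 2.35 on arrays 1 to 4, although another of its probes gave -0.71. C1S was not called (0.52 ± 0.60, adjusted p = 0.30), with array 1 at -0.34. Of the 5 regulators measured, CPN1 was higher (0.54 ± 0.22, adjusted p = 0.045) and CPB2 lower. Both are carboxypeptidases that trim complement peptides. CPB2 had -3.07 ± 0.83 (adjusted p = 0.024), and since it was above background only in fertilised pools, parthenotes were at least 1.64-fold lower. The other probe of CPB2 gave -0.52. The membrane inhibitor CD59 was not called (0.15 ± 0.12, adjusted p = 0.17). Of the receptors, ITGB2 was higher (0.60 ± 0.11, adjusted p = 0.014) and ITGAM was not called.

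Among 16 further acute phase proteins, 1 was higher and 2 were lower, against 9.14% and 11.2% of all genes. ORM1, orosomucoid, had 1.84 ± 0.32 (adjusted p = 0.013 in limma), higher in parthenotes on all arrays and above background in a fertilised pool on 1 array. The ferritin heavy chain FTH1 had -0.59 ± 0.06 (adjusted p = 0.0072). CRP was called lower (-0.88 ± 0.17, adjusted p = 0.014) but was above background in neither channel, so no fold is given, and another of its probes gave 0.31. The fibrinogen chains FGB and FGG, like HP, had array 1 below 0 and the other arrays above it, and were not called.

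Of 13 genes of the signals that switch on acute phase genes, 4 were higher and 2 lower, against 9.14% and 11.2% of all genes. IL1B, the cytokine interleukin 1 beta, had 2.76 ± 0.66 (adjusted p = 0.020 in limma). It was above background only in parthenotes, on 3 arrays, which makes it at least 1.24-fold higher. The lowest of its 3 probes gave 1.05. IL1RN, the antagonist of the same receptor, had 2.15 ± 0.18 (adjusted p = 0.0055), with 2.09, 1.93, 2.29 and 2.29 on arrays 1 to 4. Another probe of IL1RN gave 0. The receptor IL1R1 was not called (-0.36 ± 0.55, adjusted p = 0.43 in limma) at its 1 probe under that name, above background in parthenotes on 1 array. The paper lists IL1R1 among the genes higher in parthenotes, and the reason for the difference was not tested. STAT3, the factor through which interleukin 6 acts on acute phase genes, was lower (-0.45 ± 0.17, adjusted p = 0.039). IL6 itself ran from 0.06 to 2.78 between arrays and was not called (adjusted p = 0.20).

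Of 15 further genes of mucosal defence, 2 were higher and 4 lower, against 9.14% and 11.2% of all genes. TLR4, a receptor for bacterial lipopolysaccharide, had 2.27 ± 0.42 (adjusted p = 0.014 in limma) but was above background in a parthenote pool on 1 array and in no fertilised pool, at least 1.13-fold higher. Its partner CD14 had 0.92 ± 0.15 (adjusted p = 0.012) and was above background in all pools. NOS2, the inducible nitric oxide synthase, was lower at -1.65 ± 0.13 (adjusted p = 0.0055 in limma). That was the lowest mean of its 7 probes, and another gave 0. The surfactant protein SFTPA1 was also lower at -0.78 ± 0.27 (adjusted p = 0.036), though another probe of SFTPA1 gave 1.94.

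**Figure D4:**
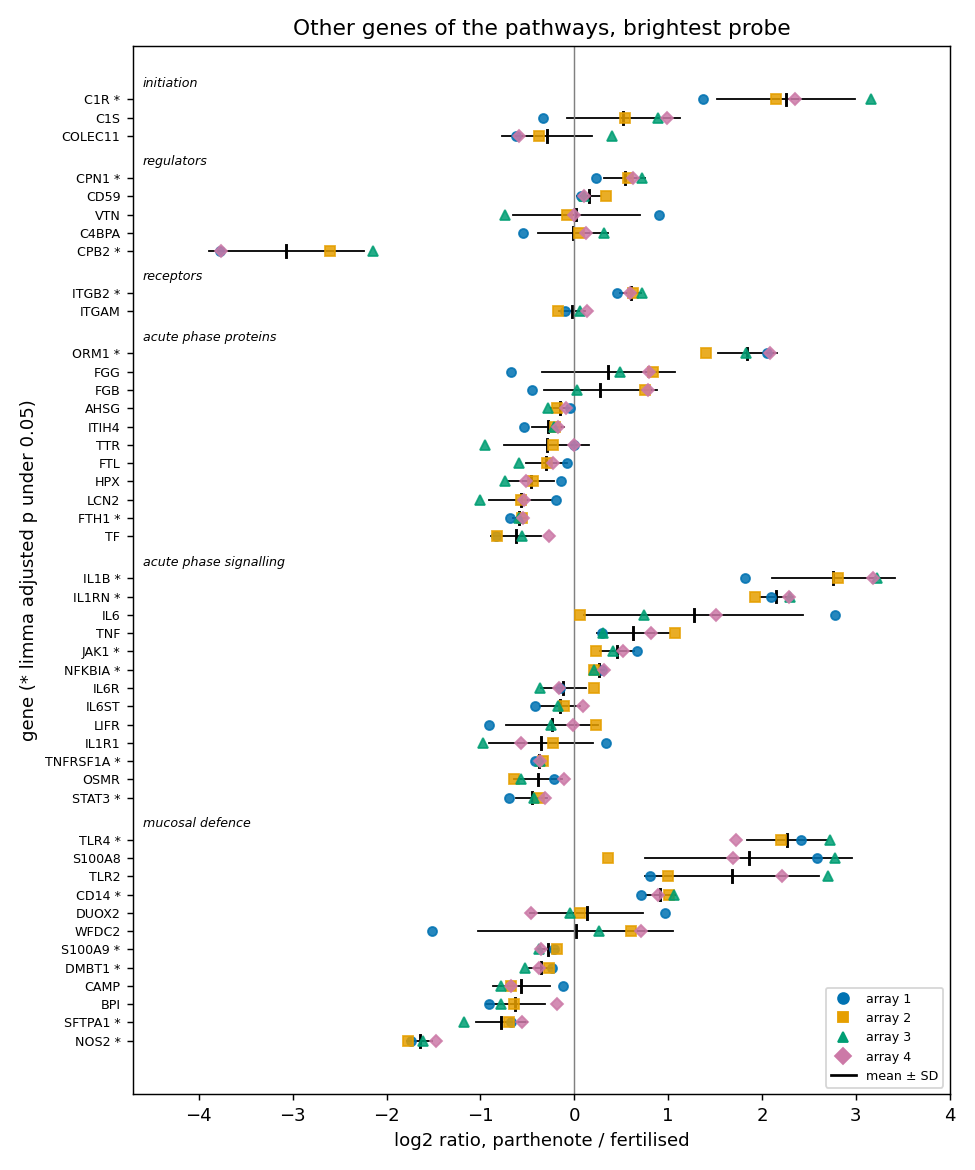
Log2 ratio of parthenote over fertilised embryos (x axis) for the genes of the list by role that were above background on at least 1 array (y axis, grouped by role). Points are arrays, the black bar and line are the mean and SD, and an asterisk marks an adjusted p under 0.05 in limma. Genes higher and lower in parthenotes occurred among acute phase signals, acute phase proteins and mucosal defence alike.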

How the data were processed

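The 4 two-colour Agilent arrays of 60-base probes lay on a single slide and were extracted with Agilent Feature Extraction 10.10.1.1. The mean and local background intensity that the authors deposited for each spot are not normalized. Their processed intensity is background-subtracted and dye-normalized, with a surrogate for dim spots. The deposited log10 ratio is Cy5 over Cy3 of these. The table deposited for the whole series repeats that log10 ratio with the opposite sign, so it is no independent alternative. The dye of each group is per the labels.

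Ratios were turned to log2 of parthenote over fertilised. Controls were dropped, as were the 26 to 48 of 43803 spots per array that carried an outlier mark, and replicate spots were averaged. The mean ratio of each of the 43595 probes with values on 3 or more arrays was tested against 0 (limma 3.58.1, R 4.3.3, moderated test, two-sided) with Benjamini-Hochberg adjustment over them and a threshold of 0.05. Between 25805 and 27835 spots per channel were well above background. The number of arrays limits the precision. The ratio pairs the pools of an array, whose deviations from the group means correlated by 0.38 to 0.47.

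On simulated ratios with the spreads of the 43527 probes with a value on every array, the comparison recovered 15, 31, 28 and 37 of 50 probes changed 1.5, 2, 3 and 5-fold, with 5 false calls. A far smaller share of probes was changed there than the 20.6% called in the data. The adjustment was therefore stricter, and the recovery does not measure the power of this comparison. Symbols came from the accession or identifier in the array files through the rabbit gene names of assembly mOryCun1.1. Limits for probes measured in a single channel used channel signals after normexp, loess and Aquantile. Named genes were the 42, dim defensins only as a group, and from the list by role the 5 largest called in each direction with C3, CD59, IL1R1 and STAT3, while others were added after their values were seen. SERPING1 and CD55, named in that rule too, were not analysed here. The genes, lists and tests were chosen with earlier results of these data known. Promoters and proteins were not used here, and 2 of the 42 genes and 1 probe sequence are not reported here. Python 3.11.15, numpy 2.4.6, pandas 2.3.3, matplotlib 3.10.9 and the data.table package (1.17.8) were used.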

Additional observations from a re-analysis of the deposited data

Results flagged for a closer look

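Of the 21 genes with a brightest probe above background in at least 1 channel on every array, 2 had an array far from the other 3 by Dixon's criterion. CFI had 0.10 on array 1 against 0.68 to 0.79 on the others. SAF-8 (LOC100144318) had -0.45 on array 1 against -0.29 to -0.26. Chance alone marks about 1 in 20 such groups.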

How the results depend on the processing

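The 4 named genes were higher in parthenotes on every array used, in all 11 alternatives run for them. They had been selected on their higher level in these arrays, so this direction is a description and no support. SAA3, LOC100347068 and LYZL4 were called in each of the 14 alternatives tested, of which the value table of the series repeats the deposited ratios, but their size moved. LYZL4 went from -2.95 to -0.52 after normexp and loess, -0.34 after normexp and median centring, and -0.59 with its probes averaged, and LOC100347068 from 1.67 to 0.42 after normexp and loess. The counts moved more. Of all probes, 8996 were called (4155 higher, 4841 lower), against 31248 after normexp and median centring and 21399 with the ratio of the processed signals (13912 higher, 7487 lower). There were 16358 with channels as separate samples and no replicate block (11117 higher, 5241 lower), 4435 in the methods' t-test, and 1239 to 5736 without 1 replicate. With the dim-probe filter, which keeps probes above background in at least 1 channel on every array, 11277 of the 26725 probes tested were called. Of the 38 keyword genes, 4 were called, against 25 after normexp and median centring (18 higher, 7 lower) and 20 with the ratio of the processed signals (14 higher, 6 lower). There were 13 with no replicate block (10 higher, 3 lower) and 3 to 5 without 1 replicate. With all probes of a gene averaged 7 were called, and the share over all genes is not given here. After normexp and loess, 4 were called, with 6587 of all probes. With repaired local backgrounds in that setting, an alternative chosen after seeing the data, 10 were called. Over the whole array 13117 of 43595 probes were called there, so the rise was not particular to the keyword genes. With the dim-probe filter only the 17 keyword genes with a detected brightest probe were tested, and 9 of them were called. Of the 55 listed genes, 19 were called, against 36 after normexp and median centring, 35 with the ratio of the processed signals, 12 in the methods' t-test, and 4 to 14 without 1 replicate. The direction of a called value turned only for CLUAP1, from 0.02 without a call to -0.26 with one after normexp and median centring. After normexp and loess CLUAP1 had -0.01, without a call. The causes were not tested. Of 304 gene values under an alternative, 263 kept their call or moved by less than 1 SD. With 4 arrays and no dye swap, small changes can be missed and dye effects stay in every ratio. Ratios of probes dim in a channel depend on the surrogate, which the limits and the normexp ratios do not use.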
